A study of Sus scrofa with 6 samples.

Results

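The genes described are oocyte growth factors, zona pellucida proteins and oocyte regulators: GDF9, BMP15, ZP2, ZP3, ZP4, FIGLA, NOBOX, SOHLH2, KIT and OOSP2. They were chosen by symbol, and 9 of the 10 symbols were found among the 17678 genes of the deposited table. SOHLH2 was not listed by name, but its Ensembl identifier, ENSSSCG00000026164, was listed without a name and is paired with SOHLH2 in a reference table, so its values are given as those of an identifier match. The identifiers of the genes found by name are ENSSSCG00000014288 (GDF9), ENSSSCG00000012310 (BMP15), ENSSSCG00000007851 (ZP2), ENSSSCG00000007691 (ZP3), ENSSSCG00000010141 (ZP4), ENSSSCG00000008321 (FIGLA), ENSSSCG00000024977 (NOBOX), ENSSSCG00000008842 (KIT) and ENSSSCG00000039560 (OOSP2). Messenger RNA was sequenced from porcine 2-cell embryos at 32 h after parthenogenetic activation, in 3 NC and 3 KD libraries of 20 pooled embryos each. NC embryos came from mature oocytes injected with a non-specific siRNA, and KD embryos from oocytes injected with a mixture of siRNAs against SIN3A, the scaffold of the SIN3/HDAC repressor complex. In both groups the oocytes came from ovaries of Landrace, Yorkshire and Duroc crossbreds, were matured in vitro, were stripped of cumulus cells with hyaluronidase, and were activated by electric pulses followed by cycloheximide and cytochalasin B, so that no sperm contributed. The replicates are described as independent, but neither labels nor methods say whether each came from a separate collection of oocytes. The p-values therefore set the difference between groups only against the spread between these libraries.

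GDF9 and BMP15 are growth factors of the TGF-beta family that the oocyte secretes and that act on the surrounding granulosa and cumulus cells. The zona pellucida is the glycoprotein coat of the egg, which is built from ZP proteins made by the growing oocyte. FIGLA, a basic helix-loop-helix factor that switches on zona genes, and the factors NOBOX and SOHLH2 drive oocyte growth, and KIT is the receptor through which the oocyte answers KIT ligand. The genome of the pig embryo is activated after the 2-cell stage, so that transcripts found at this stage are largely those that the oocyte stored. The question addressed here was which of these oocyte transcripts were left in 2-cell embryos, and whether their level differed in SIN3A KD.

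The SIN3A transcript checks the labels. It was measured at 37361, 33964 and 32404 in the NC libraries and at 3271, 1079 and 4173 in the KD libraries, replicates 1 to 3. KD embryos had 8.22% of the mean NC level, a log2 difference of -3.81 ± 0.31 (standard error; limma, adjusted p = 8.45e-06). The adjusted p was 0.423 in a fit without a variance trend and 0.469 with robust eBayes. The estimated depth was 7790000 to 15790000 reads per library, and all 6 libraries had a median ratio of 1.01 to the geometric mean over libraries.

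ZP2 and ZP4 were the tested genes of the set with the largest spread between libraries. A relation of this spread to the sequence in front of a gene was not tested. The 3 zona genes are shown first by the sequence in front of them. In RefSeq's annotation of Sscrofa11.1, each has the 6-base E-box CAGGTG, or CACCTG, the same element read on the other strand, at nearly the same distance before the annotated start of its mRNA. E-boxes are the elements that basic helix-loop-helix factors bind. The windows of 30 bases are written 5′ to 3′ on the strand of the gene, with the E-box in capitals.
ZP2: ctggagaaggttCAGGTGtctccagtggag
ZP3: aagggggcggccCAGGTGtaagtagccatc
ZP4: ttataaggcatgCACCTGaaaccagctttc
They lie at chr3:24863648-24863677 on the plus strand for ZP2, at chr3:9944982-9945011 on the minus strand for ZP3, and at chr14:53577056-53577085 on the plus strand for ZP4. The first base of the E-box stands 70 bases before the start in ZP2, 75 in ZP3 and 70 in ZP4. The match nearest to the start is shown. ZP3 has another match 157 bases before its start, and ZP4 has others at 178 and 92 bases. An E-box CAGGTG on either strand between 60 and 80 bases before the start was present in 1.80% of 20638 promoters, and among the 8 promoters of the genes described with a RefSeq entry it was present in these 3. The distance was chosen after the sequences were seen, and FIGLA and NOBOX have a CACCTG just outside it, 57 and 51 bases before their starts. Anywhere from 250 bases before to 50 bases after the start, CAGGTG on either strand was found in 22.3% of all promoters and in 5 of the 8. The looser E-box CANNTG, which includes CAGGTG, was found in 68.9% of all promoters and in 7 of the 8. The TATA box TATAAA, searched on both strands, was found in 11.7% of all promoters and in 3 of the 8, the ones of ZP2, ZP4 and FIGLA. The NOBOX element TAATTG, searched on both strands, was found in 7.07% of all promoters and in none of the 8. The RefSeq mRNA of GDF9 is 1335 bases long and all coding, so its window lies before the first coding base. For GDF9 the window may therefore miss the promoter, and the absence of a match there says little. A match to these letters is a description and not a binding site.

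BMP15, on chromosome X from 44613122 to 44620575 on the plus strand, had the highest level per kilobase among the 8 genes with a known transcript length. It was measured at 21056, 20095 and 19476 in the NC libraries and at 20885, 24182 and 21473 in the KD libraries, replicates 1 to 3. The values are read estimates per gene that the authors normalized between libraries, and they are not scaled to transcript length. The groups overlapped, with KD replicate 1 below NC replicate 1 and the other KD values above all NC values. NC embryos averaged 20209 ± 796 and KD embryos 22180 ± 1758 (SD, n = 3 each). KD exceeded NC by a log2 fold change of 0.13 (95% confidence interval -0.045 to 0.31; limma, Benjamini-Hochberg adjusted p = 0.997). Fold changes are on the log2(value + 1) scale, which understates the change of low genes.

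GDF9, the paralog of BMP15, lies on chromosome 2 from 135181494 to 135184451 on the minus strand. Its values were 5111, 4228 and 4726 in NC and 4455, 4612 and 4747 in KD replicates 1 to 3. All 3 KD values fell inside the range of the NC values. NC embryos averaged 4688 ± 442 and KD embryos 4605 ± 146 (SD, n = 3 each), which is a log2 fold change of -0.022 (95% confidence interval -0.21 to 0.17; limma, adjusted p = 0.997). In linear terms the interval runs from 0.865 to 1.12 times the NC level for GDF9 and from 0.969 to 1.24 times for BMP15. These 2 intervals were the narrowest of the set.

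The ratio of both growth factor transcripts within a library does not depend on the scaling between libraries. BMP15 had 4.12, 4.75 and 4.12 times the value of GDF9 in the NC libraries and 4.69, 5.24 and 4.52 times in the KD libraries, replicates 1 to 3. The groups overlapped through NC replicate 2. On the log2 scale the GDF9 to BMP15 ratio stood at -2.11 ± 0.12 in NC and -2.27 ± 0.11 in KD embryos (SD, n = 3 each), a difference of -0.15 (exact two-sided permutation test, p = 0.3, where 3 against 3 libraries cannot go below 0.1).

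**Figure D1:**
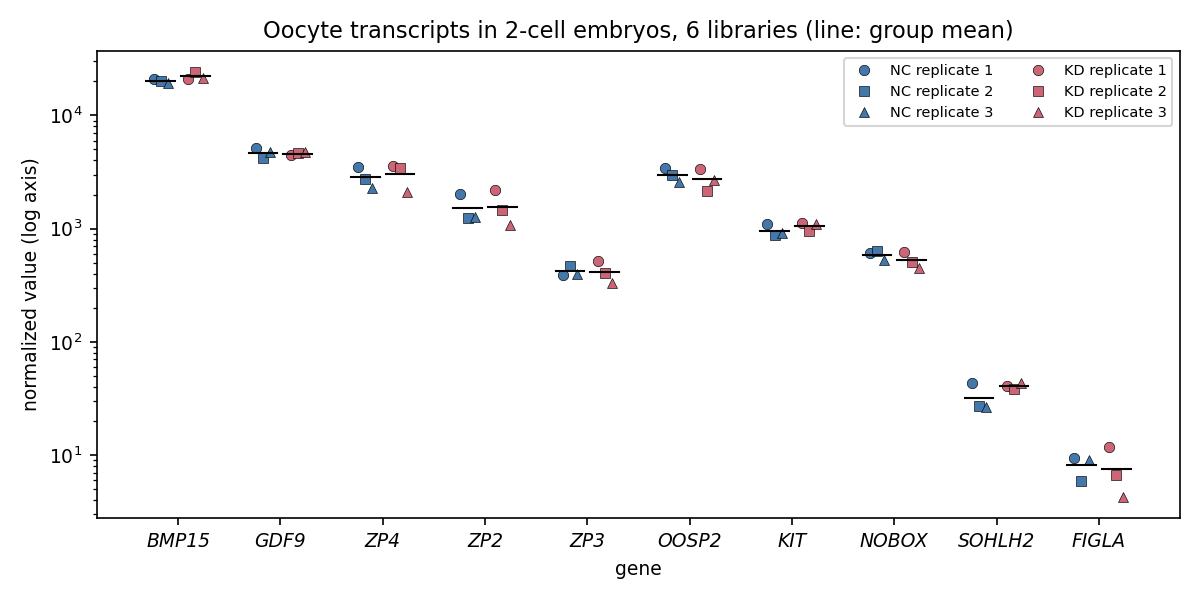
Normalized values (log axis) of the 10 oocyte genes in each of the 6 libraries, with NC in blue, KD in red, a marker shape for each replicate number and a line at the group mean. The values are not scaled to transcript length, so heights compare libraries and not genes. For every gene the NC and KD values overlap.

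ZP2, on chromosome 3 from 24863730 to 24877522, encodes a zona glycoprotein that is cleaved after fertilization. Its values were 2015, 1231 and 1272 in NC and 2178, 1448 and 1070 in KD replicates 1 to 3. Replicate 1 was the highest library in both groups, and the highest of the 6 values was 2.04 times the lowest. NC embryos averaged 1506 ± 441 and KD embryos 1565 ± 563 (SD, n = 3 each). The log2 fold change was 0.032 (95% confidence interval -0.40 to 0.46; limma, adjusted p = 0.997).

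ZP4, a zona glycoprotein on chromosome 14 from 53577138 to 53584544, behaved alike in its spread. The values were 3471, 2767 and 2304 in NC and 3576, 3427 and 2097 in KD replicates 1 to 3. Replicate 1 was the highest and replicate 3 the lowest library in either group. NC embryos averaged 2848 ± 588 and KD embryos 3033 ± 814 (SD, n = 3 each), which is a log2 fold change of 0.072 (95% confidence interval -0.28 to 0.43; limma, adjusted p = 0.997).

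ZP3, on the same chromosome as ZP2 from 9934760 to 9944924, encodes the partner of these proteins in the zona filaments. Its values were 392, 470 and 394 in NC and 514, 401 and 330 in KD replicates 1 to 3. The KD libraries held both the highest and the lowest of the 6 values. NC embryos averaged 419 ± 44.4 and KD embryos 415 ± 92.4 (SD, n = 3 each), which is a log2 fold change of -0.030 (95% confidence interval -0.35 to 0.29; limma, adjusted p = 0.997).

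Within a library, ZP2 had 5.14, 2.62 and 3.23 times the value of ZP3 in NC and 4.24, 3.61 and 3.24 times in KD replicates 1 to 3. ZP4 had 8.85, 5.89 and 5.85 times the value of ZP3 in NC and 6.96, 8.54 and 6.35 times in KD replicates 1 to 3. For both ratios NC replicate 1 was the highest library, and the groups overlapped. The difference of the log2 ratio between KD and NC was 0.063 for ZP2 to ZP3 (exact two-sided permutation test, p = 0.8) and 0.10 for ZP4 to ZP3 (exact two-sided permutation test, p = 0.6). Over the 3 ratios tested, the growth factor ratio included, the Benjamini-Hochberg adjusted exact p was 0.8 for each.

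**Figure D2:**
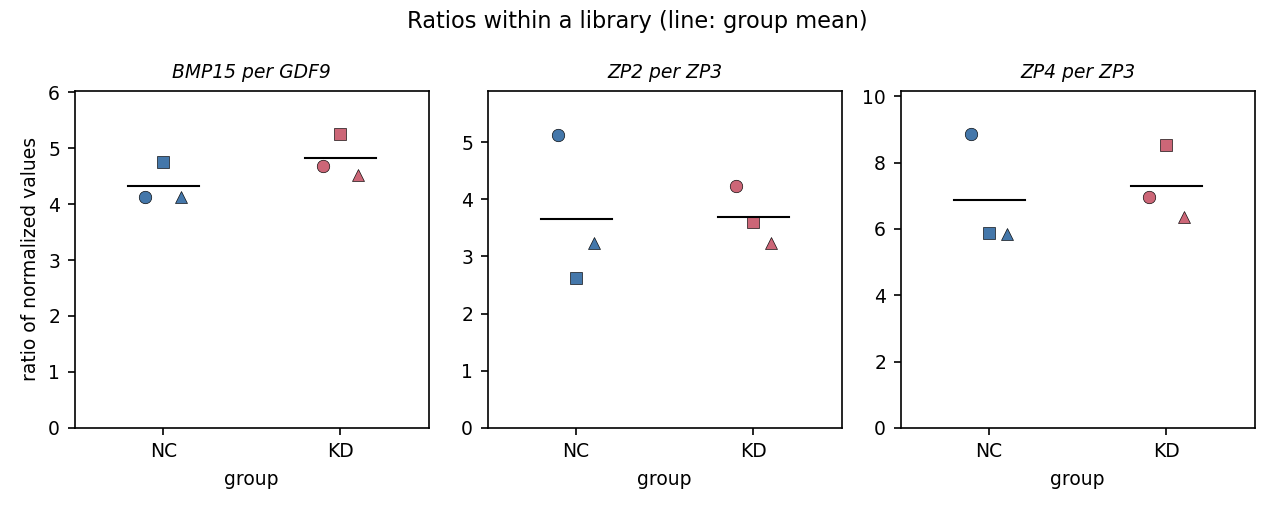
Ratio of the normalized values of BMP15 to GDF9, ZP2 to ZP3 and ZP4 to ZP3 in each library (circle, square and triangle for replicates 1 to 3), with a line at the group mean. BMP15 per GDF9 lies between 4.12 and 5.24, while ZP2 per ZP3 ranges from 2.62 to 5.14.

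The spread between libraries was wide for the zona transcripts ZP2 and ZP4 and smaller for both growth factors, whose values were higher. The residual standard deviation of a gene, on the log2 scale after the group means are removed, was 0.089 for BMP15 and 0.10 for GDF9. It was 0.46 for ZP2, 0.37 for ZP4 and 0.25 for ZP3. The median of the 7244 tested genes with a mean of at least 100 was 0.14. The residual standard deviation of ZP2 was larger than that of 99.1% of these genes, and that of ZP4 was larger than that of 97.2%. OOSP2 stood at 89.3%, ZP3 at 85.7%, NOBOX at 72.2%, KIT at 51.9%, GDF9 at 25.5% and BMP15 at 17.4%. Among 10 other oocyte and early embryo transcripts found in the table, such as WEE2, H1FOO and MOS, the median was 0.16. Over all 11986 genes tested, low ones included, the median was 0.21, so the spread depended on the level. The genes compared were not matched for level, and the high values of BMP15 and GDF9 were not allowed for. This ordering of the spreads is a description with no test.

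Relative to its group mean, ZP2 stood at 0.46 on the log2 scale in NC replicate 1 and at 0.54 in KD replicate 1. The respective values of ZP4 were 0.31 and 0.28. ZP3 did not share this pattern in NC, where replicate 1 stood at -0.088, but stood at 0.33 in KD replicate 1. Of the 10 genes, 5 had replicate 1 as the highest library in both groups, namely ZP2, ZP4, OOSP2, KIT and FIGLA, against 12.8% of all 11986 genes tested. FIGLA is not among the genes tested. Counted over any replicate number, the same number was highest in both groups for 5 of the 10, against 37.2% of all genes tested. No gene of the set had replicate 2 or replicate 3 as the highest in both groups. The labels do not say whether libraries with the same number share oocytes, and the part of such sharing in these values was not tested.

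**Figure D3:**
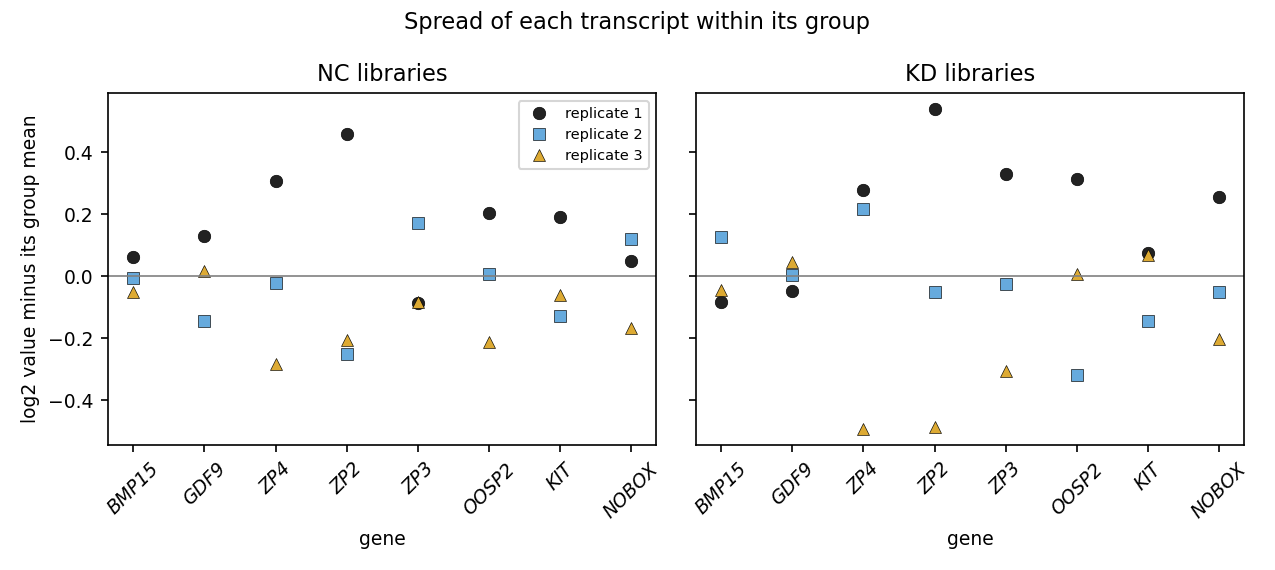
Log2 value of each library minus the mean of its group, for the 8 genes of the set found by name and tested, in NC (left) and KD (right), with a symbol for each replicate number. Replicate 1 of ZP2 stands at 0.46 in NC and 0.54 in KD, while all BMP15 and GDF9 points lie between -0.14 and 0.13.

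OOSP2, an oocyte-secreted protein, had values of 3434, 2996 and 2570 in NC and 3363, 2166 and 2714 in KD replicates 1 to 3. The lowest value was that of KD replicate 2, and the groups overlapped. NC embryos averaged 3000.0 ± 432 and KD embryos 2748 ± 599.6 (SD, n = 3 each), which is a log2 fold change of -0.14 (95% confidence interval -0.43 to 0.15; limma, adjusted p = 0.997).

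KIT, a receptor tyrosine kinase on chromosome 8 from 41402334 to 41492306, had values of 1092, 876 and 917 in NC and 1111, 955 and 1107 in KD replicates 1 to 3. Of the KD values, 2 were above all NC values. NC embryos averaged 962 ± 115 and KD embryos 1058 ± 89.0 (SD, n = 3 each), which is a log2 fold change of 0.14 (95% confidence interval -0.096 to 0.38; limma, adjusted p = 0.997).

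Among the transcription factors, NOBOX, a homeobox protein on chromosome 9 from 113348363 to 113354504, had values of 608, 639 and 524 in NC and 622, 503 and 453 in KD replicates 1 to 3. KD replicates 2 and 3 were below all NC values, and KD replicate 1 was within the NC range. NC embryos averaged 590 ± 59.6 and KD embryos 526 ± 87.2 (SD, n = 3 each), which is a log2 fold change of -0.17 (95% confidence interval -0.46 to 0.11; limma, adjusted p = 0.997).

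FIGLA, on chromosome 3 from 71709580 to 71723760, was close to the detection limit. Its values were 9.50, 5.94 and 9.08 in NC and 11.7, 6.62 and 4.30 in KD replicates 1 to 3, which corresponds to an estimated 3.92 to 12.1 reads per library. Its mean was below the minimum of 10 set for the test. In a fit without that minimum its log2 fold change was -0.17 with a 95% confidence interval of -1.38 to 1.03. This is 0.385 to 2.05 times the NC level, so the interval leaves room for a fall as well as a rise.

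The identifier paired with SOHLH2 had values of 43.1, 27.0 and 26.5 in NC and 40.5, 38.0 and 43.3 in KD replicates 1 to 3. NC replicate 1 lay among the KD values, so the groups overlapped. NC embryos averaged 32.2 ± 9.46 and KD embryos 40.6 ± 2.67 (SD, n = 3 each), which is a log2 fold change of 0.36 with a wide 95% confidence interval of -0.29 to 1.01 (adjusted p = 0.997 from limma).

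Of the 8 genes found by name and tested, none passed an adjusted p of 0.05 by limma and none had an unadjusted p below 0.05, where 0.159% of the 11986 genes tested passed the adjusted p (0.0584% higher and 0.1% lower in KD embryos) and 4.61% the unadjusted one. In none of the 8 did the values of the groups separate, as they did in 9.79% of all genes tested. Of these genes, 4 had a higher and 4 a lower mean log2 value in KD embryos, and their median log2 fold change was 0.0051, against 0.0026 over all genes tested. The 95% confidence intervals of all 8 lay between -0.46 and 0.46, inside an absolute log2 fold change of 0.8. An interval of this width does not show equal levels. The sign of the fold change turned for GDF9, ZP2, ZP3, ZP4 and OOSP2 when 1 of the libraries was left out, and without a variance trend none of all the genes tested passed. A shorter poly(A) tail and a lower number of molecules cannot be told apart in RNA selected with oligo(dT).

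**Figure D4:**
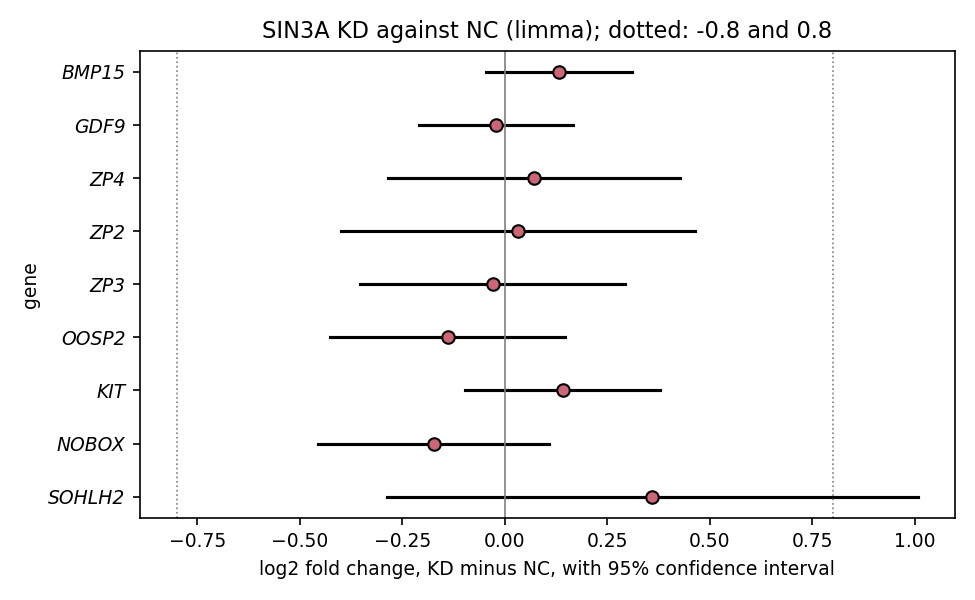
Log2 fold change of KD over NC (points) with its 95% confidence interval (lines) from limma for the 9 oocyte genes tested, SOHLH2 by its identifier, with dotted lines at -0.8 and 0.8. All intervals include 0, and those of ZP2 and SOHLH2 are the widest.

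Levels of different genes were compared per kilobase of the longest RefSeq mRNA. In NC embryos BMP15 had 8165 ± 322 units per kb (SD, n = 3) and GDF9 3512 ± 331. They were followed by ZP4 with 1696 ± 350 and ZP2 with 675 ± 198. NOBOX had 342 ± 34.5, ZP3 323 ± 34.3, KIT 259 ± 30.9 and FIGLA 8.97 ± 2.14 units per kb (SD, n = 3 each). The replicate ranges of BMP15, GDF9, ZP4 and ZP2 did not overlap with those of their neighbours in this order, in NC or in KD embryos. Those of NOBOX and ZP3 overlapped in both groups. In KD embryos the range of KIT overlapped with that of ZP3 and with that of NOBOX. The level per kb of BMP15 was above that of 99.7% of 10336 tested genes with a RefSeq length, and that of GDF9 above 99.2%. FIGLA was above 16.5% of them. For ZP4 this was 97.5%, for ZP2 91.1%, for NOBOX 82.3%, for ZP3 81.4% and for KIT 77.4%. The RefSeq mRNA of GDF9, 1335 bases long, has no untranslated sequence, while that of BMP15 has 2475 bases of which 1209 are coding. As an alternative chosen after seeing the data, the whole value of each gene was divided by its coding length. Reads from untranslated sequence were kept, so the level of BMP15 rises by construction. This does not correct for untranslated sequence missing from the GDF9 entry. The level was 16715 per kilobase of coding sequence for BMP15 and 3512 for GDF9. The order of the 8 genes in NC embryos was the same, with ZP3 at 331 and KIT at 329.8 nearly equal. In KD embryos KIT, with 363 per kilobase of coding sequence, lay above ZP3 with 328. In KD embryos the order per kb of mRNA was also the same but for NOBOX and ZP3, which overlapped, with 305 ± 50.5 and 321 ± 71.4 (SD, n = 3 each). OOSP2 and SOHLH2 had no RefSeq entry by symbol and are not in this order.

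The genes around these oocyte factors were taken from 8 lists of receptors, signal transducers, antagonists and partners. Of 86 genes in these lists, 75 were found and 61 were tested. None passed an adjusted p of 0.05 by limma, and 2 had an unadjusted p below 0.05, ACVR2B and AKT2, against 4.61% of all genes tested. Their median log2 fold change was 0.041, and 7 of the 61 had groups that did not overlap, against 9.79% of all genes tested. Both counts are near the background.

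All 8 receptors of oocyte-secreted and related factors were tested, and 5 had a higher and 3 a lower mean log2 value in KD embryos. ACVR1B, a type I activin receptor, had the highest mean of the list, with 6471 ± 186 in NC and 7013 ± 156 in KD embryos (SD, n = 3 each). Its log2 fold change was 0.12 (95% confidence interval -0.050 to 0.28; limma, adjusted p = 0.997). ACVR2A, a type II activin receptor, had the largest difference, with 133 ± 15.5 in NC and 163 ± 14.4 in KD embryos (SD, n = 3 each) and a log2 fold change of 0.29 (95% confidence interval -0.068 to 0.66; limma, adjusted p = 0.997). ACVR2B had 1869 ± 62.3 in NC and 2167 ± 234 in KD embryos (SD, n = 3 each), which gives a log2 fold change of 0.21. In these 3 genes every KD value was above every NC value, and groups did not overlap in 9.79% of all genes tested. None of the 3 passed the adjusted p, which was 0.997 by limma. BMPR2, the type II receptor that GDF9 and BMP15 share, had 2821 ± 191 in NC and 2832 ± 108 in KD embryos (SD, n = 3 each). BMPR1B, the type I receptor of BMP15, had 1236 ± 39.0 and 1295 ± 72.2, and TGFBR1, the type I receptor of GDF9, had 238 ± 39.0 and 213 ± 75.2.

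SMAD proteins carry the signal of these receptors to the nucleus. Of 8 SMAD genes, 6 were tested, 2 with a higher and 4 with a lower mean log2 value in KD embryos. SMAD5, of the BMP branch, had the highest mean with 3962 ± 318 in NC and 3795 ± 293 in KD embryos (SD, n = 3 each). The largest difference was that of the inhibitory SMAD6, a low transcript with 17.8 ± 5.94 in NC and 14.7 ± 8.06 in KD embryos (SD, n = 3 each) and a log2 fold change of -0.35 (95% confidence interval -1.41 to 0.71). SMAD7 and SMAD9 had means below 10.

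Of the convertases and antagonists, 8 of 10 were tested, 5 with a higher and 3 with a lower mean log2 value in KD embryos. FURIN, a convertase that cleaves precursors of this family, had 1387 ± 3.27 in NC and 1527 ± 172 in KD embryos (SD, n = 3 each). CHRD, which encodes the BMP antagonist chordin, had the largest difference, with 21.9 ± 9.30 in NC and 35.8 ± 6.55 in KD embryos (SD, n = 3 each). Its log2 fold change was 0.76 (95% confidence interval -0.033 to 1.55; limma, adjusted p = 0.997), and its KD values all lay above its NC values.

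Of the other ligands of the family, 7 of 12 were tested, 2 with a higher and 5 with a lower mean log2 value in KD embryos. Their median log2 fold change was -0.31, against 0.0026 over all genes tested, and none had an unadjusted p below 0.05 by limma. BMP6 had the highest mean, with 1364 ± 344 in NC and 1376 ± 107 in KD embryos (SD, n = 3 each). INHBA, which encodes an activin subunit, had the largest difference, with 14.9 ± 2.48 in NC and 9.38 ± 3.71 in KD embryos (SD, n = 3 each) and a log2 fold change of -0.66 (95% confidence interval -1.71 to 0.40). Both groups of every tested ligand overlapped.

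For KIT signalling, 18 of 22 genes were tested, 12 with a higher and 6 with a lower mean log2 value in KD embryos. LYN, a SRC family kinase, had the largest difference, with 19.3 ± 9.11 in NC and 12.3 ± 3.50 in KD embryos (SD, n = 3 each) and a log2 fold change of -0.52 (95% confidence interval -1.55 to 0.50). AKT2 had 5862 ± 671 in NC and 6722 ± 232 in KD embryos (SD, n = 3 each), or 0.20 as a log2 fold change, at an adjusted p of 0.997 from limma. KITLG, the ligand of KIT, had values of 659, 423 and 545 in NC and 606, 549 and 605 in KD replicates 1 to 3, with overlapping groups.

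KITLG is also a product of granulosa cells, which were to be removed before injection. Of 15 cumulus and granulosa genes found in the table, 11 had means below 10, and the sum of these 11 was 14.3 to 25.5 in NC and 11.0 to 43.2 in KD libraries. They include AMH, PTX3, TNFAIP6 and CYP19A1, and 9 of the 15 were at 0 in at least 1 library. The other 4 were VCAN, KITLG, NR5A1 and STAR. VCAN, a matrix proteoglycan, had 816 ± 94.0 in NC and 782 ± 64.4 in KD embryos (SD, n = 3 each). NR5A1, a steroidogenic factor, had the largest difference with 25.2 ± 11.2 in NC and 33.1 ± 0.851 in KD embryos (SD, n = 3 each), which gives a log2 fold change of 0.47 and an adjusted p of 0.997 from limma. The summed level of the 15 genes was 1235 to 1636 in NC and 1336 to 1530 in KD libraries. Of 17 oocyte and early embryo markers, 10 were found and all 10 were tested, with means from 51.6 for DDX4, a germ cell helicase, to 43707 for WEE2, an oocyte kinase. None of these passed the adjusted p. DDX4 had the largest difference of them, with a log2 fold change of -0.38 (95% confidence interval -0.93 to 0.17).

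On the egg surface, 3 of 7 genes found were tested. ASTL, the cortical granule protease that cleaves ZP2, had 1150 ± 146 in NC and 1190 ± 40.6 in KD embryos (SD, n = 3 each). OVCH1 had the largest difference, a log2 fold change of -0.16 (95% confidence interval -0.48 to 0.16). IZUMO1R, the egg receptor of the sperm protein IZUMO1, had 695 ± 179 and 722 ± 149. The other 4 had means below 10, among them CD9, an egg membrane tetraspanin, with a mean of 1.68 over the 6 libraries. In the OOSP family, PLAC1 was found with a mean of 1.40 and was not tested.

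Of 11 tested oocyte transcription factors and their partners, 7 had a higher and 4 a lower mean log2 value in KD embryos. STAT3 had the highest mean, with 5994 ± 167 in NC and 6187 ± 144 in KD embryos (SD, n = 3 each). TCF3, which encodes an E protein of the kind that pairs with FIGLA, had 450 ± 34.7 and 497 ± 11.4, and its relative TCF12 had 225 ± 22.4 and 202 ± 22.3. TCF4 had the largest difference, a log2 fold change of 0.30 with a 95% confidence interval of -0.87 to 1.47 at a mean of 10.9. LHX8, a homeobox factor of the early oocyte, had 680 ± 11.2 in NC and 639 ± 38.3 in KD embryos (SD, n = 3 each).

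**Figure D5:**
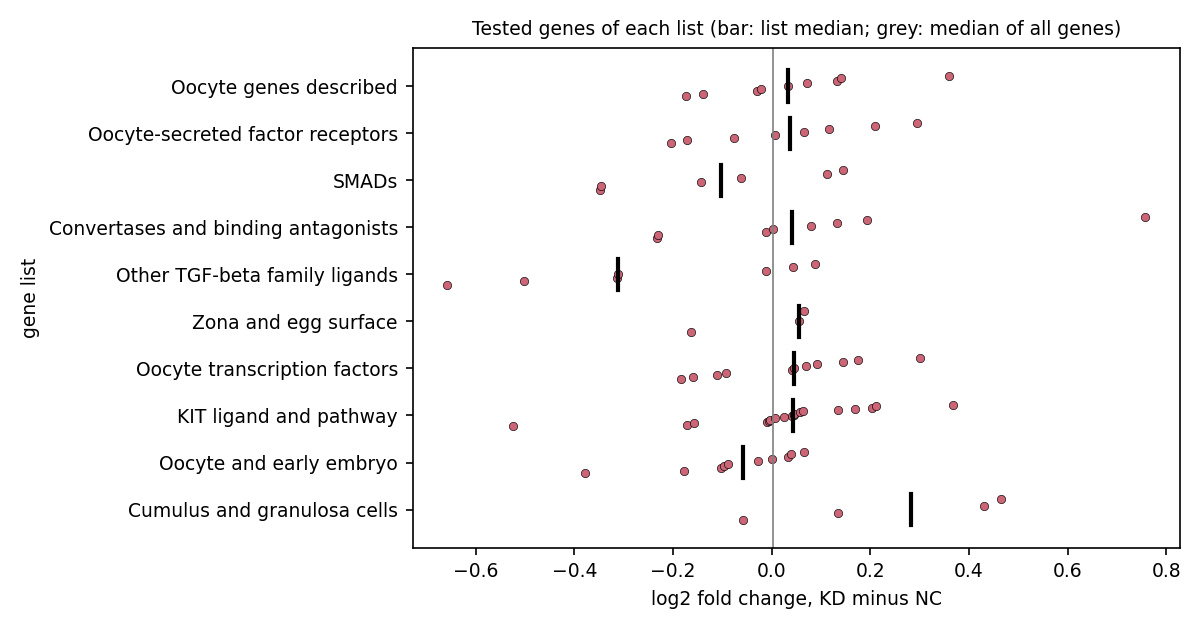
Log2 fold change of KD over NC for each tested gene (points) of the oocyte genes described and of the lists around them, with the list median as a bar and the median of all tested genes in grey. The points farthest out, CHRD at 0.76 and INHBA at -0.66, belong to low transcripts.

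The genes whose pattern over the 6 libraries was most like that of GDF9, by Pearson's r of the log2 values among 10866 named genes, were NGRN (0.985), CREB5 (0.979) and TRIM21 (0.978). For BMP15 they were EPCAM (0.983), EXTL3 (0.983) and EFCAB12 (0.979). With 6 libraries, correlations of this size among so many genes are a description and not a finding.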

How the data were processed

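Poly(A) RNA of 3 NC and 3 KD libraries was sequenced, and per the labels the authors used Salmon 0.14.1 on Sscrofa11.1 transcripts and DESeq2. The authors deposited normalized signal values per Ensembl gene; the annotation release is not given in the sources used here. Groups came from sample titles. The median ratio of each library to the geometric mean was 1.01. Library sums were 11084900 to 11500700. From the spacing of low values the depth was estimated at 7790000 to 15790000 reads. Only 43.0% to 62.9% of low values lay within 0.02 of a whole multiple, so no count test was run. The GFP and RFP spike-in RNA named in the labels was not analysed here.

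Genes with a mean of at least 10 (11986) were tested on log2(value + 1) with limma 3.58.1 in R 4.3.3 (eBayes with a variance trend, Benjamini-Hochberg adjustment over all genes), checked on simulated data. Exact permutation tests used scipy 1.17.1, and figures matplotlib 3.10.9. Of 3575 identifiers without a name, 837 were named through a reference table. Positions, lengths and sequences came from RefSeq (Sscrofa11.1). The genes and lists were chosen with earlier results of these data known. All 10 genes were described. From each list, genes past the adjusted p, the highest mean and the largest fold change were named, except for 1 gene that is not reported here; ACVR2B, AKT2, BMPR2, BMPR1B, TGFBR1, SMAD7, SMAD9, KITLG, IZUMO1R, CD9, PLAC1, TCF3, TCF12, LHX8 and the low cumulus and oocyte markers were added for their role or after their values were seen.

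Results were recomputed with a pseudocount of 0.1 or of 10, with all genes or those with a mean of 100 or more, after scaling by a trimmed mean of log ratios, after quantile normalization, without the variance trend, with robust eBayes, with the replicate number as a block and with 1 library left out. Coding length was added as an alternative after seeing the data.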

Additional observations from a re-analysis of the deposited data

How the results depend on the processing

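None of the 8 genes found by name passed an adjusted p of 0.05 under any alternative, and the lowest adjusted p of limma over all settings was 0.734, for ZP4. Of 134 comparisons of a member's fold change with an alternative, 123 kept direction and side of the threshold and 11 changed sign, all 11 when a library was left out. Its range was then -0.094 to 0.042 for GDF9, -0.24 to 0.28 for ZP2, -0.20 to 0.12 for ZP3, -0.071 to 0.32 for ZP4 and -0.30 to 0.020 for OOSP2. BMP15 (0.068 to 0.17), NOBOX (-0.30 to -0.072), KIT (0.076 to 0.24) and SOHLH2 (0.24 to 0.58) kept their sign, but their size depended on the library left out: BMP15 was lowest without KD replicate 2, NOBOX nearest to 0 without KD replicate 3, KIT highest without NC replicate 1 and SOHLH2 highest without NC replicate 1. The difference of the log2 ratio ranged from -0.22 to -0.092 for GDF9 to BMP15, from -0.15 to 0.34 for ZP2 to ZP3 and from -0.018 to 0.30 for ZP4 to ZP3. The lists had 0 called genes in every setting. The count of all genes called was 19, and 15 with an absolute log2 fold change above 0.8. They were 11 to 19 and 10 to 14 when a library was left out (for the first count, 12 without NC replicate 2 or 3 and 11 without KD replicate 1 or 2), and 0 and 0 without the variance trend, where 622 genes had an unadjusted p below 0.05. SIN3A had an adjusted p of 0.423 without the trend and of 0.469 with robust eBayes, at a log2 fold change of -3.81. The cause was not tested.

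The labels do not say whether the replicate numbers pair libraries. Same-numbered libraries had correlations of 0.109, 0.111 and 0.087 after removal of the group means, each the best match of both libraries. The correlations of libraries with different numbers were all negative, from -0.083 to -0.021. With the replicate block 26 genes were called. The standard error of ZP2 was then 0.10 in place of 0.20, with an adjusted p of 0.994 by limma. It was 0.094 in place of 0.17 for ZP4 and 0.099 in place of 0.14 for OOSP2, but 0.310 in place of 0.306 for SOHLH2. FIGLA and SOHLH2, the genes of the set with the lowest values, had the widest intervals.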
